A study of Homo sapiens with 15 samples.

Results

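The 40 genes described here encode the machinery that copies DNA in S phase, from the proteins that mark and license replication origins to the ligase that seals the finished strand. They were taken as a list of gene symbols from the 26485 symbols counted in each of the deposited tables. They were divided by role into 12 origin licensing genes, 8 origin firing genes, 9 polymerase and primase subunits, 6 genes of the sliding clamp and its loader, 3 single-strand binding subunits and 2 genes of Okazaki fragment maturation. All 40 passed the filter on low counts in both experiments, so no member was left out of any test.

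The libraries come from PSN-1, an established human cell line of pancreatic ductal adenocarcinoma (PDAC), in 5 groups of 3 libraries. In the first experiment cells were transfected for 72 hours with a control siRNA (siControl), an siRNA against the transcription factor MondoA (siMondoA; gene symbol MLXIP) or an siRNA against MLX, the partner with which MondoA binds DNA (siMLX). In the second they received the vehicle DMSO or SBI-477, described in the labels as a MondoA inhibitor, for 72 hours; the dose is not stated in the labels. The groups share 1 cell line and carry no stated genetic modification, and the samples include no rescue, so loss of a target and side effects of its siRNA cannot be told apart. The labels do not state whether replicates came from separate cultures; the p-values therefore cover the spread between libraries, possibly a technical one.

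Before S phase the origin recognition complex (ORC) sits at origins and, with CDC6 and CDT1, loads the ring-shaped MCM2 to MCM7 helicase, a step that geminin (GMNN) blocks once replication has begun. The DBF4-CDC7 kinase then helps to convert the loaded ring into the active CDC45-MCM-GINS helicase, after which polymerase alpha-primase starts each strand and polymerases delta and epsilon extend it on the PCNA clamp that replication factor C (RFC) loads. Replication protein A (RPA) covers exposed single strands, and FEN1 and LIG1 trim and join Okazaki fragments. Transcription of many of these genes is driven by E2F factors as cells commit to S phase, and in proliferating tumour lines they are generally abundant.

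Total counts were 11227343 to 14731691 in the siRNA libraries and 23315440 to 30480362 in the drug libraries, and the 40 genes held 0.16 to 0.302% and 0.381 to 0.456% of them. MLXIP was at 83.6, 65.8 and 88.7 CPM (TMM-scaled read counts relative to library size) in siControl, against 22.6, 23.4 and 15.7 CPM in siMondoA, and MLX was at 53.4, 58.8 and 53.0 CPM in siControl, against 11.9, 7.15 and 7.70 CPM in siMLX, so each siRNA library showed less of its target. All 6 epithelial markers were counted in every group, and no islet marker was counted in siRNA libraries. Some markers of other cell types were counted in all 15 libraries. They were LUM, COL3A1 and PDGFRB (fibroblast), CD68 and CSF1R (leukocyte), PECAM1 (endothelial), and PRSS1 and CPA1 (acinar). Their part in the results was not tested. The drug labels carry a conflict: the authors' deposited drug fold changes came back from the counts only when the replicate 2 libraries of DMSO and SBI-477 traded places (median absolute difference 1.89e-07, against 0.196 with the labels as given). TXNIP, listed as a label check, was lower in every siMondoA library than in any siControl library. In DMSO replicates 1, 2 and 3 it was at 145, 39.2 and 204 CPM, and in SBI-477 at 74.6, 121 and 41.5 CPM. Replicate 2 thus stood the other way round from replicates 1 and 3. Libraries keep their labels here, and the drug counts are also given from replicates 1 and 3 alone.

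The promoters of the 40 genes differ in the E2F sites through which such genes are classically read, which is why 3 stretches are shown first. RefSeq windows on GRCh38.p14, scored over the 250 bases before the start, were matched for 34 of the 40 genes, 43 windows in all, and searched on both strands; MCM4, MCM5, GINS4, POLD3, RPA2 and RPA3 were not matched. The E2F site (TTTCCCGC or TTTGGCGC) was in 12 of 43 windows, 27.9%, against 1.93% of 35116 windows of all genes. CCAAT was in 24 of 43, 55.8%, against 32.0% of all windows. CACGTG, the E-box that MondoA and MYC family dimers can bind, was in 4 of 43 windows, those of FEN1, MCM2, MCM7 and RPA1, against 6.34% of all. The ATF4 element TTGCATCA was in 0 of 43 windows, against 0.772% of all. A match is a description of letters and shows no binding. The stretches below hold no exon annotated in GENCODE v29, run 5′ to 3′ on the gene's strand and carry E2F site and CCAAT matches in capitals (ATTGG is CCAAT on the other strand). MCM6 and MCM3 encode subunits of 1 helicase whose levels parted between libraries, and GINS1 is the member that fell after siMondoA. They lie at chr2:135876444-135876693 (minus strand), chr6:52284882-52284992 (minus strand) and chr20:25407423-25407672 (plus strand).
MCM6: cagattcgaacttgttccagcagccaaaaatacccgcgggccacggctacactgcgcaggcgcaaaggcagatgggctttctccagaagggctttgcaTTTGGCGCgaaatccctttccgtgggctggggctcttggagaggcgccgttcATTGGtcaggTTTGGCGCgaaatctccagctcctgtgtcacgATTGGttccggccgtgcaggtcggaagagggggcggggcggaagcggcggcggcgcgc
MCM3: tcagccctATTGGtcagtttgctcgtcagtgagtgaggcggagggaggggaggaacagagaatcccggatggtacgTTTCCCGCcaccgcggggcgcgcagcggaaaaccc
GINS1: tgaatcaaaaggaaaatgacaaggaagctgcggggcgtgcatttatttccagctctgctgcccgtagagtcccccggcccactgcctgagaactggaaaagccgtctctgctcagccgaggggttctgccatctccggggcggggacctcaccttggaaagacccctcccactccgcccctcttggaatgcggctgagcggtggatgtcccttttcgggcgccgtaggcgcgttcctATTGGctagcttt
The MCM6 stretch holds 2 E2F matches and 2 CCAAT matches, that of MCM3 holds 1 of each, and that of GINS1 holds 1 CCAAT match and 0 E2F matches. The stretches differ in length: MCM3 is cut to 111 bases where an annotated exon begins, against 250 for MCM6 and GINS1. Over the 250 bases scored, MCM3 holds 1 E2F match and 3 CCAAT matches, so the printed counts do not rank these genes. In the windows of DBF4 and RFC4, the members that rose after both siRNAs, none of the 4 motifs was matched.

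Levels per length are CPM, scaled by the TMM method of edgeR, divided by the exon length in kilobases. On this scale PCNA, the sliding clamp, was the highest member in both controls, at 159 ± 4.27 CPM per kb (SD, n = 3) in siControl and 258 ± 61.6 in DMSO. MCM7 was next, at 54.5 ± 4.93 and 128 ± 12.9 CPM per kb, followed by POLD2, the accessory subunit of polymerase delta, at 39.3 ± 2.45 and 68.2 ± 11.8. The lowest were POLE, the catalytic subunit of polymerase epsilon, in siControl at 2.69 ± 0.57 CPM per kb, and PRIM2, the large primase subunit, in DMSO at 4.25 ± 0.52. Near the low end the order was not resolved: GINS4, at 2.81 ± 0.38 CPM per kb in siControl, and POLE overlapped. siRNA and drug libraries were separate experiments, and a difference in level between them cannot be told apart from one between experiments.

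The comparison of siMondoA with siControl asks which replication transcripts change when MondoA is depleted. Of the 40 genes, 7 rose and 1 fell, and 32 did not pass the test. Rose and fell are used for genes with an adjusted p under 0.05 in edgeR's quasi-likelihood test over all 13001 genes. The 7 that rose are 17.5% of the list, against 14.2% of all genes tested, and the 1 that fell is 2.5%, against 12.9%. The share that rose was near the background. The median log2 fold change was -0.02 for the list and 0.004 for all genes. Those that rose were spread over the sequence of events: 4 licensing genes (ORC2, ORC6, CDT1 and MCM6), the kinase activator DBF4, the clamp loader subunit RFC4 and the single-strand binding subunit RPA2. The member that fell was GINS1, a subunit of the active helicase. No polymerase, primase or Okazaki gene passed the test.

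Leaving out 1 library moved these counts: 2 members rose without siMondoA replicate 3 or without siControl replicate 1, 3 without siControl replicate 2 and 4 without siMondoA replicate 1, against 6 without siMondoA replicate 2 or siControl replicate 3. The share of all genes that rose moved too: it was 7.6% without siMondoA replicate 3, 7.29, 6.35 and 8.04% without siControl replicates 1, 2 and 3, 8.67% without siMondoA replicate 2 and 15.5% without siMondoA replicate 1. Of lower members there were 3 without siMondoA replicate 1 and 0 without any 1 of the other siMondoA or siControl libraries, against 13.9% and 6.88 to 8.99% of all genes. DBF4 and MCM6 kept their calls in all 12 alternative analyses.

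**Figure D1:**
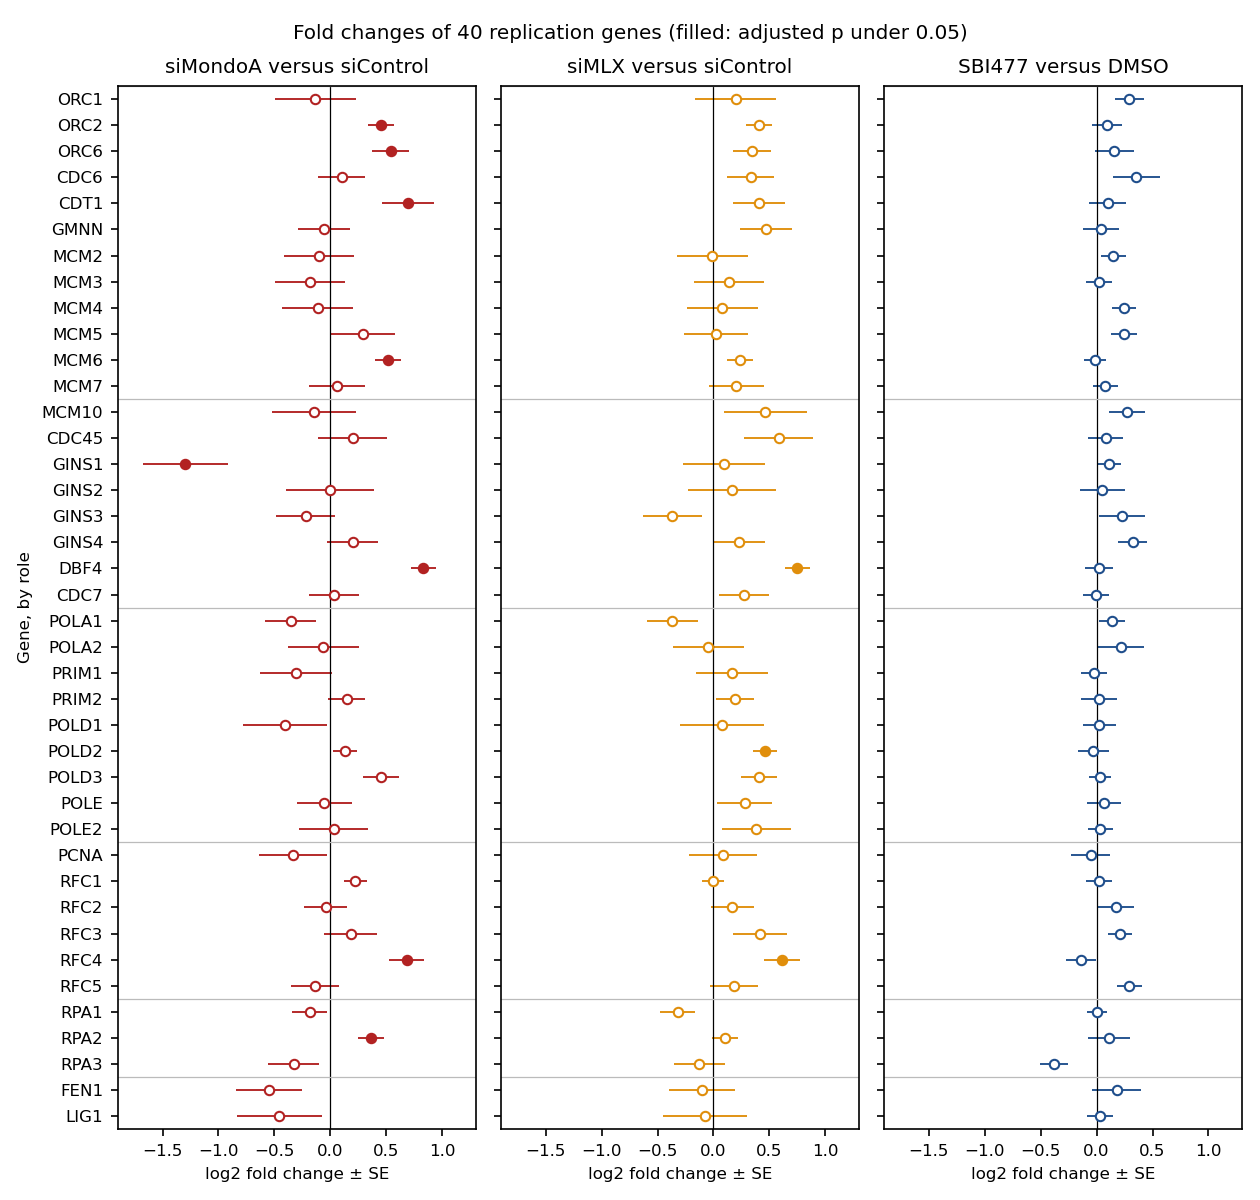
Log2 fold change with its standard error (x axis) of each of the 40 genes, ordered by role (y axis), for siMondoA and siMLX against siControl and SBI-477 against DMSO as labelled; filled points have an edgeR adjusted p under 0.05. After siMondoA 7 points are filled to the right of 0 and GINS1 to the left at -1.29, after siMLX 3 are filled, and none is filled for SBI-477.

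Among the licensing genes, MCM6 (chromosome 2, 135839626 to 135876426, minus strand; GENCODE v29 on GRCh38 for all gene positions) was at 119.9, 120.9 and 129.7 CPM in siControl, against 194, 152 and 182 CPM in siMondoA. Every siMondoA library lay above every siControl library. The log2 fold change was 0.51 ± 0.12 (SE; edgeR adjusted p = 0.0115), or 1.43-fold. ORC2 (chromosome 2, 200908973 to 200963680, minus strand), a core ORC subunit, was at 40.9, 40.2 and 45.1 CPM in siControl, against 60.7, 51.0 and 61.6 CPM in siMondoA. The groups did not overlap, and ORC2 rose by 0.46 ± 0.12 (edgeR adjusted p = 0.017). ORC6 (chromosome 16, 46689643 to 46698394, plus strand), the smallest ORC subunit, was at 20.4, 24.2 and 25.0 CPM and at 41.0, 28.4 and 31.9 CPM, a rise of 0.54 ± 0.17 (edgeR adjusted p = 0.0353). CDT1 (chromosome 16, 88803213 to 88809258, plus strand), the licensing factor that geminin inhibits, was at 14.7, 13.6 and 19.8 CPM and at 35.9, 19.9 and 21.9 CPM. The lowest siMondoA library exceeded the highest siControl library by a narrow margin, and the fold change was 0.69 ± 0.23 (edgeR adjusted p = 0.0485). The calls of ORC6 and CDT1 each failed the threshold in 5 of 12 alternatives and that of ORC2 in 3. Without siMondoA replicate 1 the fold change of CDT1 was 0.38, with an edgeR adjusted p of 0.15.

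The other 8 licensing genes did not pass. ORC1, CDC6, GMNN, MCM2, MCM3, MCM4, MCM5 and MCM7 had log2 fold changes between -0.18 (MCM3) and 0.29 (MCM5). For all but CDC6, siMondoA libraries lay both above and below the siControl range; those of CDC6, at 49.1, 44.3 and 34.6 CPM, lay within or above it. MCM3, for example, was at 87.7, 88.8 and 108.7 CPM in siControl, against 125.8, 44.1 and 82.1 CPM in siMondoA.

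In the firing step, DBF4 (chromosome 7, 87876216 to 87909541, plus strand), which activates the CDC7 kinase, had the smallest adjusted p of the 40. It was at 37.9, 45.1 and 45.5 CPM in siControl, against 75.2, 74.9 and 78.7 CPM in siMondoA. The 3 siMondoA libraries lay close together, well above siControl, for a rise of 0.83 ± 0.11 (edgeR adjusted p = 0.00122), or 1.78-fold. CDC7, its catalytic partner, was at 22.6, 27.7 and 29.9 CPM and at 35.6, 17.3 and 29.1 CPM, a log2 fold change of 0.03 ± 0.22 that did not pass (edgeR adjusted p = 0.931). Exons of DBF4 share 142 bases with SLC25A40 on the opposite strand, and whether the counting used strand is not stated, so reads from that stretch cannot be assigned.

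GINS1 (chromosome 20, 25407727 to 25452628, plus strand), 1 of 4 subunits of the GINS complex, was at 40.9, 40.2 and 48.5 CPM in siControl, against 25.0, 12.3 and 15.5 CPM in siMondoA. No siMondoA library reached the siControl range, and the log2 fold change was -1.29 ± 0.38 (edgeR adjusted p = 0.0303), or 0.408-fold. The call was lost without any 1 siMondoA or siControl library other than siMondoA replicate 1 (edgeR adjusted p 0.0684 to 0.0974), with fold changes between -1.09 and -1.35, and DESeq2 gave an adjusted p of 0.00262. Its partners GINS2, GINS3 and GINS4 had log2 fold changes of 0.00 ± 0.39, -0.22 ± 0.26 and 0.20 ± 0.23, none past the threshold. MCM10 and CDC45, the latter a subunit of the same active helicase, had -0.14 ± 0.37 and 0.20 ± 0.31, also not past it. The difference between GINS1 and the other GINS genes was not tested.

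At the fork, RFC4 (chromosome 3, 186789880 to 186807058, minus strand), a small subunit of the clamp loader, was at 22.0, 25.3 and 26.5 CPM in siControl, against 42.7, 30.0 and 45.9 CPM in siMondoA. All siMondoA libraries were above siControl, for a rise of 0.68 ± 0.16 (edgeR adjusted p = 0.0128), or 1.6-fold; the call was lost without siMondoA replicate 3 or siControl replicate 1. RFC1, RFC2, RFC3, RFC5 and PCNA did not pass, with log2 fold changes from -0.33 (PCNA) to 0.23 (RFC1). RPA2 (chromosome 1, 27891524 to 27914746, minus strand), the middle RPA subunit, was at 39.0, 33.6 and 34.3 CPM and at 50.4, 42.7 and 44.4 CPM, a rise of 0.36 ± 0.12 (edgeR adjusted p = 0.0444) that failed the threshold in 8 of 12 alternatives. The annotation names 3 pseudogenes of RPA2 and 3 of PCNA, so short reads of these genes could be split or lost. RPA1 and RPA3 had log2 fold changes of -0.18 ± 0.15 and -0.33 ± 0.23 and did not pass.

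Among the polymerase genes the smallest adjusted p was that of POLD3, an accessory subunit of polymerase delta, at 19.3, 22.1 and 26.9 CPM in siControl and 33.9, 27.7 and 32.3 CPM in siMondoA. Its groups did not overlap, but the log2 fold change of 0.46 ± 0.16 missed the threshold (edgeR adjusted p = 0.0582). It passed in 4 of 12 alternatives: by DESeq2, with the replicate number as a block (edgeR adjusted p = 0.0249), without siControl replicate 3 and without both replicate 2 knockdown libraries. The other 8 polymerase and primase genes lay between -0.41 (POLD1) and 0.14 (PRIM2). FEN1, the flap nuclease, was at 71.7, 68.2 and 72.8 CPM in siControl, against 69.1, 39.2 and 37.5 CPM in siMondoA, with a log2 fold change of -0.54 ± 0.30 (edgeR adjusted p = 0.189). Replicate 1 lay within the control range and the other 2 below it; without siMondoA replicate 1 the FEN1 fold change was -0.89 (edgeR adjusted p = 0.0372). In the authors' deposited table FEN1 had -0.60 with an adjusted p of 0.0173; 5 of the 40 genes were higher there and 2 lower, against 12.2% and 11% of all genes with an adjusted p there. Exons of FEN1 share 215 bases with FADS2 and TMEM258, so its counts are uncertain. LIG1, the DNA ligase of Okazaki fragments, had -0.46 ± 0.38 (edgeR adjusted p = 0.391).

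**Figure D2:**
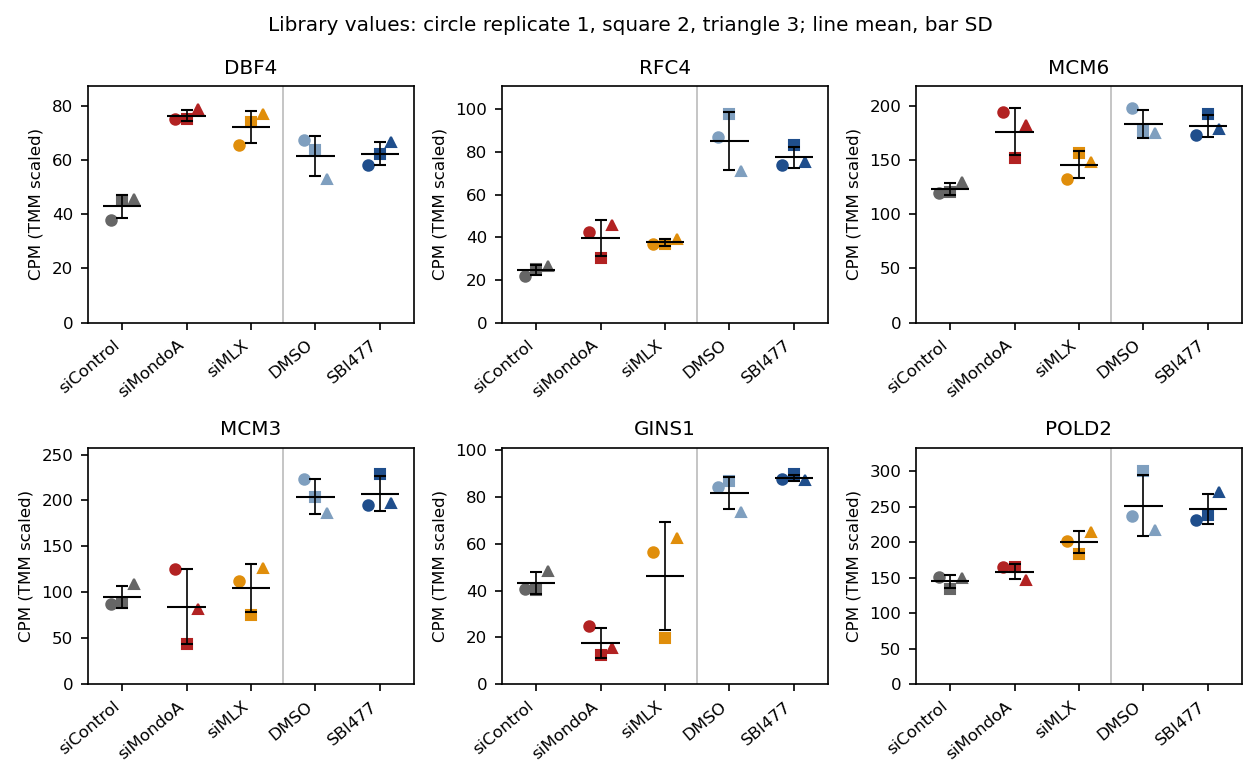
TMM-scaled CPM (y axis) in every library of the 5 groups (x axis) for DBF4, RFC4, MCM6, MCM3, GINS1 and POLD2; the marker shape gives the replicate number, the horizontal line the mean and the bar the SD of 3 libraries, and the vertical line parts the experiments. DBF4 lies at 74.9 to 78.7 CPM in siMondoA with a small spread, whereas MCM3 spans 44.1 to 125.8 CPM in the same libraries.

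The comparison of siMLX with siControl asks the same of the partner protein. Of the 40 genes, 3 rose and 0 fell: DBF4, RFC4 and POLD2. The rises are 7.5% of the list against 3.72% of all genes tested, and the 0 falls stand against 4.69%. No member fell by DESeq2 either, against 4.76% of all genes, and 5 members had an unadjusted edgeR p under 0.05, against 26% of all genes. The median log2 fold change was 0.19 for the list and 0.02 for all genes, and 31 of 40 values were positive. By role the medians were 0.22 for origin licensing, 0.25 for origin firing, 0.19 for polymerases and primase, 0.18 for clamp and loader, -0.13 for single-strand binding and -0.09 for the Okazaki pair. DBF4 was at 65.4, 73.9 and 76.9 CPM in siMLX, all above siControl, and rose by 0.75 ± 0.11 (edgeR adjusted p = 0.00475); it kept the call in all 12 alternatives. RFC4 was at 36.9, 36.6 and 39.4 CPM and rose by 0.61 ± 0.16 (edgeR adjusted p = 0.0426). POLD2 (chromosome 7, 44114681 to 44124358, minus strand) was at 150.4, 134.7 and 150.3 CPM in siControl, against 201.8, 183.5 and 214.8 CPM in siMLX, a rise of 0.46 ± 0.11 (edgeR adjusted p = 0.0267). Its siMondoA libraries, at 164.7, 165.4 and 146.2 CPM, overlapped siControl. The calls of RFC4 and POLD2 were lost when any 1 of 6 and any 1 of 5 libraries was left out, respectively. With 1 library left out 1 member rose, or 2 without siMLX replicate 2, against 0.789 to 2.87% of all genes. Same-numbered siControl and siMLX libraries deviated together, and with the replicate number as a block 4 members rose, against 6.52% of all genes, and 0 fell, against 7.44%. The member added was ORC2, at 0.41 ± 0.11 (edgeR adjusted p = 0.0427 with the block and 0.0554 without it). CDC45 and GMNN had log2 fold changes of 0.58 ± 0.31 and 0.47 ± 0.23 after siMLX and did not pass (edgeR adjusted p = 0.259 and 0.227).

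Groups without overlap were counted as well. After siMondoA 9 members lay wholly above siControl and 1 below it, against 24.4% and 22.8% of all genes. After siMLX the counts were 11 and 2, against 16.5% and 16.9%. Since both siRNA groups were compared with the same siControl libraries, the rises of DBF4 and RFC4 after both are not independent of each other.

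Set directly against siMLX, siMondoA left GINS1 lower and no other member past the threshold, so 0 were higher, against 6.66% of all genes, and 1 lower, against 6.21%. By DESeq2 0 members were higher and 2 lower, against 6.12% and 5.82% of all genes. In the edgeR fit 5 had an unadjusted p under 0.05, against 30.3% of all genes. GINS1 was at 56.3, 19.6 and 62.6 CPM in siMLX, so siMLX replicate 2 lay among the siMondoA libraries (25.0, 12.3 and 15.5 CPM). The fold change was -1.39 ± 0.38 (edgeR adjusted p = 0.0382). Without siMLX replicate 2 it was -1.75 (edgeR adjusted p = 0.00111). The call was lost without any 1 of siMLX replicates 1 and 3 or siMondoA replicates 2 and 3 (edgeR adjusted p 0.12 to 0.135). The number of lower members was then 0, where 2.68 to 3.79% of all genes were lower. It was 3 without siMLX replicate 2 (GINS1, POLD2 and FEN1) and 4 without siMondoA replicate 1 (GMNN, MCM10, GINS1 and GINS2), where 9.91% and 7.91% of all genes were lower. POLD2 was lower in every siMondoA library than in any siMLX library, at -0.33 ± 0.11, without passing (edgeR adjusted p = 0.0627).

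The feature that ran through most members was not the mean of a group but the library within it. The 3 siMondoA libraries held the list at median log2 levels of 0.44, -0.57 and -0.12 relative to the siControl mean, and the 3 siMLX libraries at 0.26, -0.16 and 0.41. In siMondoA replicate 1, 32 of 40 members lay above all siControl libraries and 1 below, against 37.8% and 34% of all genes. In siMondoA replicate 2, 10 lay above and 29 below, against 39.8% and 40.1%. In siMLX replicates 1 and 3, 30 and 34 members lay above the siControl range, against 32.3% and 37.3% of all genes. In siMLX replicate 2, 13 lay above and 19 below, against 36.8% and 36.8%, so the share above was near that of all genes. siMondoA replicate 2 was the lowest of its group for 36 of 40 members (38.6% of all genes), and siMLX replicate 2 for 34 of 40 (39.5%). This was not particular to the 40 genes. Medians in siMondoA replicates 1, 2 and 3 were 0.23, -0.85 and -0.22 for deoxynucleotide supply and 0.47, -0.22 and 0.01 for chromatin assembly. For the replication checkpoint they were 0.21, -0.27 and -0.04. The E2F and RB family stayed above the siControl mean, at 0.27, 0.15 and 0.24. In siMLX the deoxynucleotide supply genes were at 0.23, -0.44 and 0.27.

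Within siMondoA the order of the 3 libraries was the same for all 6 roles, though not for every gene. Median log2 levels in siMondoA replicates 1, 2 and 3 were 0.54, -0.53 and -0.06 for origin licensing and 0.52, -0.70 and -0.10 for origin firing. They were 0.27, -0.76 and -0.12 for polymerases and primase, 0.33, -0.52 and 0.09 for clamp and loader, 0.04, -0.42 and -0.17 for single-strand binding, and 0.07, -1.28 and -0.63 for the Okazaki pair. The SD between libraries had a median of 0.49 log2 units over the members in siMondoA, against 0.20 over all genes; in siMLX it was 0.31 against 0.21 and in siControl 0.15 against 0.14. Within siMondoA the SD ran from 0.04 for DBF4 to 1.00 for GINS2. In bulk RNA, fewer cells in S phase and less transcript per cell cannot be told apart.

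**Figure D3:**
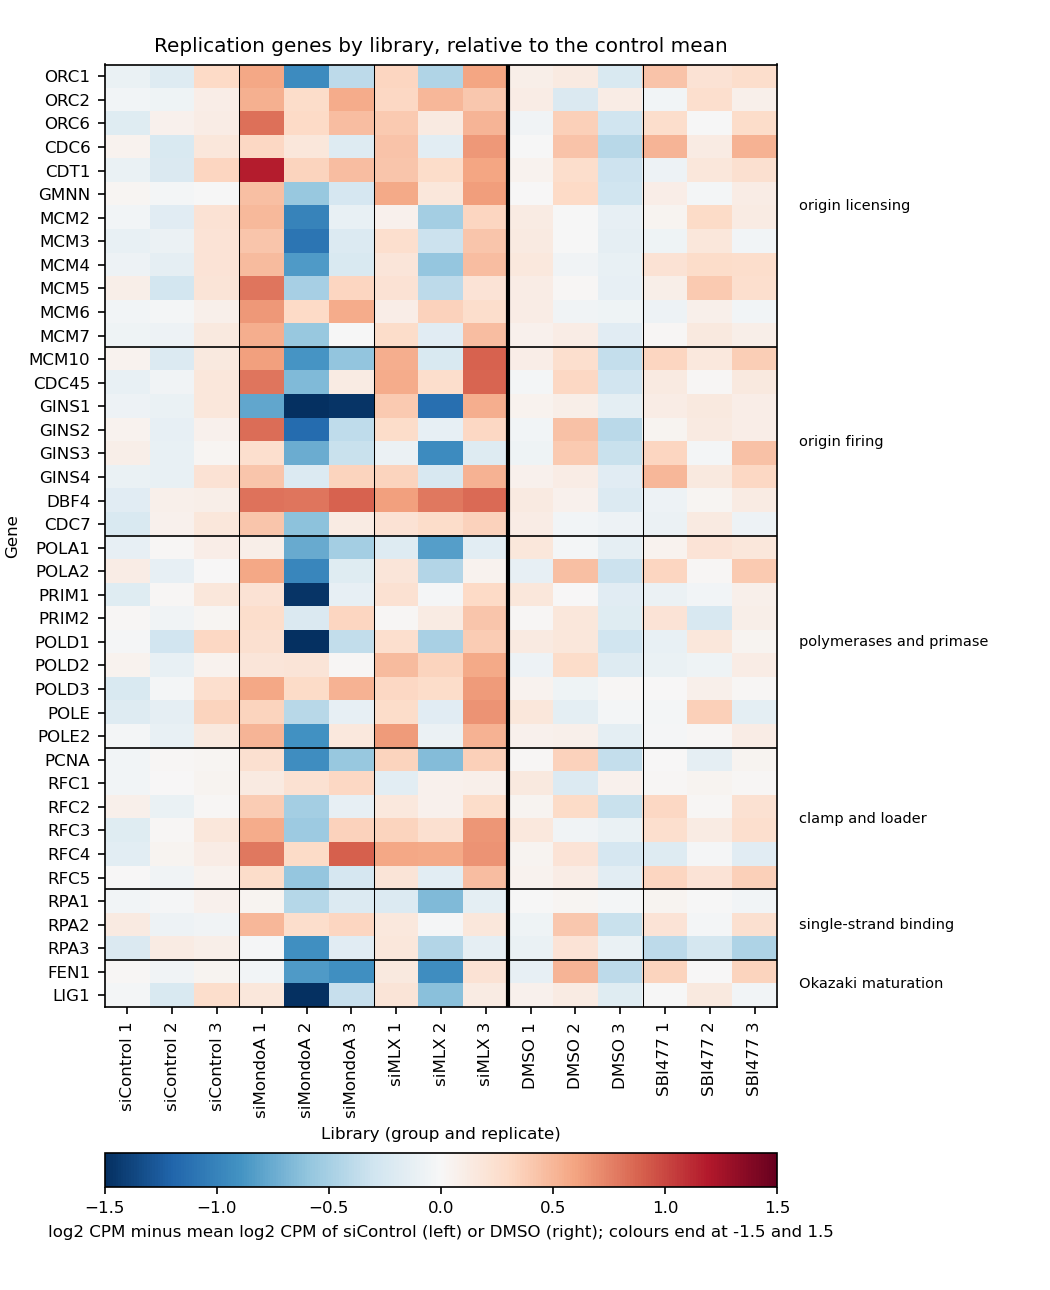
Log2 CPM of each of the 40 genes (y axis, grouped by role) in each of the 15 libraries (x axis), as the difference from the mean of siControl (left of the thick line) or DMSO (right), on a colour scale that ends at -1.5 and 1.5 log2 units. siMondoA replicate 2 is blue for most genes while the DBF4 line is red in all 6 siMondoA and siMLX libraries.

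The integrated stress response, the ATF4-driven program switched on when translation initiation is restrained, moved with the same libraries. The median log2 level of 8 such genes (ATF4, DDIT3, CHAC1, ASNS, TRIB3, SESN2, PSAT1 and DDIT4) was 1.99, 3.74 and 3.46 in siMondoA replicates 1, 2 and 3 relative to siControl, and 0.16, 3.07 and 0.28 in siMLX. Among the knockdown libraries, the 2 with the highest value in their group were those with the lowest replication genes, siMondoA replicate 2 and siMLX replicate 2. In siControl, replicate 2 also had the highest stress median, 0.23, and the lowest replication median, -0.08. The drug groups were arranged otherwise. DMSO replicate 3 was the lowest of its group for both, at -0.12 and -0.18, as was SBI-477 replicate 1, at -0.49 and 0.05. The part of the stress response in the levels of the replication genes was not tested.

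**Figure D4:**
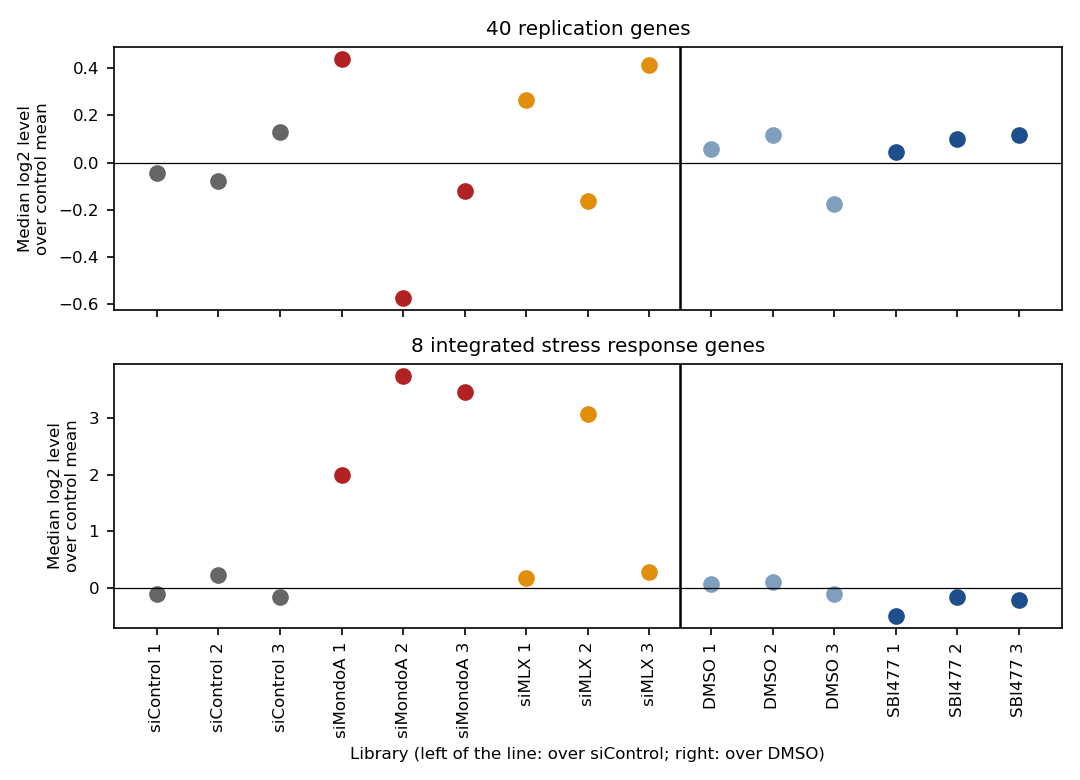
Median log2 level of the 40 replication genes (upper panel) and of 8 integrated stress response genes (lower panel) in each library (x axis), relative to the mean of siControl (left of the line) or DMSO (right). siMondoA replicate 2 has the lowest replication median, -0.57, and the highest stress median, 3.74, and siMLX replicate 2 parts from the other siMLX libraries in both panels.

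With both replicate 2 knockdown libraries left out, an analysis chosen after seeing the data, 10 members rose after siMondoA and 1 fell, against 14.4% and 14.4% of 13127 genes. MCM5, POLD3 and RFC3 joined the 7 named above, and GINS1 remained the 1 lower member at -1.11 ± 0.19 (edgeR adjusted p = 0.00155). After siMLX 7 rose and 0 fell, against 5.21% and 6.99%: DBF4, RFC4 and POLD2 as before, with GMNN, CDC45, POLE2 and RFC3. DESeq2 was not run on this subset. Between the knockdowns MCM6 was then higher and GINS1 and POLD2 lower in siMondoA, against 10.8% and 8.87% of all genes.

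The composition of the MCM ring transcripts differed between libraries. The share of MCM6 was high in both replicate 2 knockdown libraries, where the other subunits were low. This pattern was described after the values were seen and was not tested. Within siMondoA the level of MCM6 itself, at 194, 152 and 182 CPM, was lowest in replicate 2, as were those of the other subunits. In siMondoA replicate 2, MCM2, MCM3, MCM4, MCM5 and MCM7 were at 49.4, 44.1, 72.8, 26.5 and 161 CPM, each below the lowest siControl library, and MCM6 at 152 CPM was above the highest. As a share of the summed CPM per kb of MCM2 to MCM7, MCM6 made up 19.7, 20.3 and 18.2% in siControl. It made up 21.0, 33.6 and 27.3% in siMondoA, whereas the siMLX values were 18.1, 27.7 and 17.8%. The share was highest in the same 2 replicate 2 libraries and in siMondoA replicate 3. In siMondoA replicate 3 not all other subunits were low. There MCM5, at 46.8 CPM, lay above every siControl library, and MCM2 and MCM7, at 91.3 and 237 CPM, lay within the siControl range. MCM3 and MCM4, at 82.1 and 112 CPM, lay below it. In the 6 drug libraries it was 13.3 to 15.1%. MCM7 held the largest share in 14 of the 15 libraries, at 33.4 to 43.5%, the exception being siMondoA replicate 2, where MCM6 slightly exceeded it; MCM5 held the smallest, at 2.81 to 4.12%. Exons of MCM7 share 392 bases with AP4M1 on the opposite strand, so its share is uncertain.

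**Figure D5:**
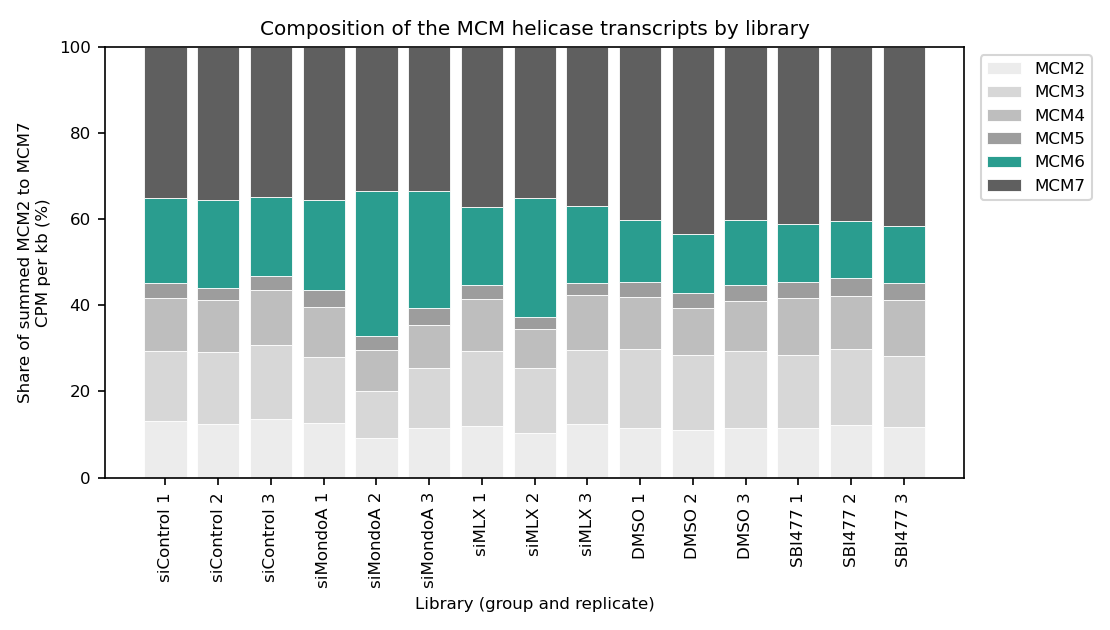
Share of the summed CPM per kb of the 6 MCM2 to MCM7 genes held by each gene (stacked bars, y axis in percent) in each of the 15 libraries (x axis), with MCM6 in green. The green part is 18.2 to 20.3% in siControl and reaches 33.6% in siMondoA replicate 2 and 27.7% in siMLX replicate 2.

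SBI-477 against DMSO asks whether the compound acts on these genes as the siRNAs do. With the libraries as labelled no member passed the test, against 0% of 14023 genes in either direction, since no gene at all passed by edgeR or by DESeq2. At an unadjusted edgeR p under 0.05 there were 4 members (MCM4, GINS4, RFC5 and RPA3) and 409 genes, 2.92% of all. The median log2 fold change was 0.08 for the list and -0.01 for all genes. Groups did not overlap for 6 members, 5 higher and 1 lower, against 4.76% and 4.5%. RFC5, a clamp loader subunit, was at 62.2, 65.0 and 53.7 CPM in DMSO, against 75.0, 69.4 and 77.3 CPM in SBI-477 (0.29 ± 0.11). RPA3, the small RPA subunit, was at 50.5, 62.3 and 50.7 CPM and at 41.3, 45.3 and 39.3 CPM (-0.38 ± 0.12), and each had an edgeR adjusted p of 1. On the opposite strand, exons of RPA3 share 118 bases with UMAD1 and those of RFC5 share 186 with WSB2.

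From replicates 1 and 3 alone, chosen with the label conflict known, 11 members rose and 1 fell. The rises are 27.5% of the 40 genes, against 9.07% of 14232 genes, and the fall stands against 9.02%. The median log2 fold change over the members was 0.16. Of the 40 genes, 18 lay wholly above DMSO and 5 wholly below it, against 31.5% and 32.4% of all genes. Those called were 3 licensing genes (ORC1, ORC6 and CDC6), 3 firing genes (MCM10, GINS3 and GINS4), the polymerase alpha subunit POLA2, the clamp loader subunits RFC2 and RFC5, RPA2 and FEN1; RPA3 fell. Medians by role ran from 0.02 for single-strand binding and 0.08 for polymerases and primase to 0.29 for origin firing and 0.30 for the Okazaki pair. CDC6, the licensing ATPase, was at 91.5 and 68.7 CPM in DMSO replicates 1 and 3 and at 130.5 and 131.6 CPM in SBI-477 (0.71 ± 0.13, edgeR adjusted p = 0.00673). POLA2 was at 47.5 and 41.3 CPM and at 64.8 and 68.1 CPM (0.58 ± 0.10, edgeR adjusted p = 0.00518). FEN1 was at 147.7 and 122.4 CPM and at 201.3 and 201.6 CPM (0.58 ± 0.10, edgeR adjusted p = 0.00659).

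In the replicate 2 libraries 8 of these 12 genes stood the other way round, and ORC1, GINS4, RFC5 and RPA3 kept their direction. The same count was not made over all genes, so it is not shown to be particular to the replication genes. The label conflict concerns the replicate 2 libraries as a whole. CDC6 was at 123.4 CPM in the library labelled DMSO replicate 2 and at 100.3 CPM in that labelled SBI-477 replicate 2. POLA2 was at 70.8 and 52.5 CPM, and FEN1 at 227.5 and 160.3 CPM. DMSO replicate 3 was the lowest DMSO library for 35 of 40 members (32.3% of all genes). Of the 40 genes, 7 were higher after SBI-477 and 0 lower in the authors' deposited table (10.6% and 9.51% of all genes with an adjusted p there): ORC6, CDC6, GINS3, POLA2, RFC2, RPA2 and FEN1. DBF4, MCM6 and RFC4 were at 0.05 ± 0.12, -0.08 ± 0.09 and -0.08 ± 0.11 in replicates 1 and 3, without a call.

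The difference between the SBI-477 effect and the siMondoA effect was tested as 1 contrast over 12 libraries, each effect against its own control. GINS1 was higher and DBF4 and RFC4 lower in SBI-477 relative to siMondoA, 1 and 2 of 40 members, against 4.74% and 5.65% of 14065 genes. GINS1 was at 84.2, 86.8 and 73.8 CPM in DMSO, against 87.7, 89.8 and 87.4 CPM in SBI-477, and no SBI-477 library lay below the DMSO range. The difference was 1.42 ± 0.27 (edgeR adjusted p = 0.0066), and it kept the call in all 18 alternatives. DBF4 was at 67.2, 63.7 and 53.0 CPM in DMSO, against 58.0, 62.2 and 66.7 CPM in SBI-477, and the difference was -0.79 ± 0.17 (edgeR adjusted p = 0.0111); it lost the call in 1 of 18 alternatives, the replicate block (edgeR adjusted p = 0.065). For RFC4, at 87.2, 97.8 and 70.9 CPM and at 73.8, 83.2 and 75.1 CPM, it was -0.81 ± 0.23 (edgeR adjusted p = 0.0401). That of RFC4 lost the call in 12 of 18 alternatives, among them replicates 1 and 3 of the drug libraries alone (-0.74, edgeR adjusted p = 0.0518). MCM6 had -0.51 ± 0.16 and missed the threshold (edgeR adjusted p = 0.0527). It was called lower by DESeq2, with RLE scaling, and without siMondoA replicate 2 or DMSO replicate 2. The same held for drug replicates 1 and 3 alone, and without replicate 2 of siMondoA, DMSO and SBI-477. In the remaining alternatives MCM6 was not called. The count of higher members was 7 without siMondoA replicate 1 and 2 without DMSO replicate 2, against 6.9% and 7.09% of all genes. That of lower members was 1 without siMondoA replicate 1 or 3, any 1 siControl library, DMSO replicate 1 or any 1 SBI-477 library. In those settings 3.18 to 8.4% of all genes were lower.

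Lists of neighbouring genes were counted in the same fits, to be read against the 14.2% and 12.9% of all genes that rose and fell after siMondoA. After siMondoA, 2 of 27 other origin and replisome genes rose and 1 fell: TIPIN, of the fork protection complex, rose by 0.71 ± 0.14 (edgeR adjusted p = 0.00575), POLE4 by 0.42 ± 0.12, and MCMBP, which binds MCM subunits, had -0.50 ± 0.16. The shares, 7.41% and 3.7%, were below those of all genes; POLE4 lost its call in 4 and MCMBP in 5 of 12 alternatives. TIPIN was at 12.3, 13.6 and 14.0 CPM in siControl, against 24.9, 18.9 and 21.5 CPM in siMondoA. Of 16 genes of the E2F and RB family, 5 rose and 2 fell, 31.2% and 12.5% of the list, with a median of 0.26; the share that fell was near that of all genes. The pocket protein RBL2 fell from 59.0, 67.1 and 61.9 CPM to 22.9, 13.9 and 21.4 CPM (-1.69 ± 0.18, edgeR adjusted p = 0.00031). LIN54, the DNA-binding subunit of the complex that RBL2 can join, rose from 12.7, 10.9 and 13.7 CPM to 26.2, 34.2 and 27.0 CPM (1.23 ± 0.21, edgeR adjusted p = 0.00337). Groups did not overlap for either gene.

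Of 8 S phase cyclins, kinases and regulators (CCNE1, CCNE2, CCNA2, CDK2, CDC25A, SKP2, CDKN1A and CDKN1B), 1 rose and 1 fell, 12.5% each. CDKN1A, the inhibitor p21, was at 5.24, 4.42 and 4.56 CPM in siControl, against 15.5, 33.3 and 23.3 CPM in siMondoA (2.34 ± 0.40, edgeR adjusted p = 0.00337), and was highest in replicate 2. CCNE2, cyclin E2, was at 12.4, 13.6 and 14.5 CPM and at 7.97, 1.19 and 3.44 CPM (-1.68 ± 0.53, edgeR adjusted p = 0.0391), and was lowest in replicate 2; its call was lost in 5 of 12 alternatives. Of 9 deoxynucleotide supply genes 0 rose and 1 fell (RRM2B, -0.33 ± 0.11), of 9 chromatin assembly genes 1 rose (ASF1A, 0.55 ± 0.13) and 0 fell, and of 9 checkpoint genes 2 rose and 1 fell. The last were HUS1 (0.50 ± 0.11) and RAD1 (0.34 ± 0.11) of the checkpoint clamp and the kinase WEE1 (-0.64 ± 0.14, edgeR adjusted p = 0.00869). The call of RRM2B (edgeR adjusted p = 0.0499) was lost in 9 of 12 alternatives, that of RAD1 in 6 and that of ASF1A in 2. All 8 stress response genes rose. After siMLX, 1 of the 27 other replisome genes rose, 1 of the 16 E2F and RB genes fell, and no member of the other lists passed, against 3.72% of all genes that rose and 4.69% that fell. After SBI-477 as labelled none of any list passed by the same edgeR test. From drug replicates 1 and 3, 9.07% and 9.02% of all genes rose and fell. There 6 of the 27 other replisome genes rose and 0 fell, and 2 of the 16 E2F and RB genes rose and 2 fell. Of the 8 S phase cyclins, kinases and regulators, 5 rose (CCNA2, CCNE1, CCNE2, CDC25A and the inhibitor CDKN1A) and 1 fell (CDKN1B). Of the stress response genes 0 rose and 4 fell there (ASNS, ATF4, DDIT4 and TRIB3).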

How the data were processed

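RNA-seq of 15 PSN-1 libraries was used, grouped by title. Per the labels' protocols, RNA was extracted with Direct-zol kits, made into Kapa libraries and sequenced as paired reads of 25 bases; whether strand was marked is not stated. The submitters' processing notes name hg38 and mm10 as builds and, as tools, HTSeq 0.6.1, TopHat2 2.1.0, bcl2fastq 1.8.4 and edgeR. The authors deposited raw counts per gene symbol. The same tables hold the authors' deposited log2 fold changes and p-values with adjusted values, per the file headers, whose names are those DESeq2 writes. In the siRNA table, DESeq2 1.42.0 with a replicate term returned the authors' deposited log2 columns to median differences of 2.27e-13 (siMondoA) and 2.21e-13 (siMLX) over genes whose normalized counts averaged more than 20. Without that term the median differences were 0.00657 and 0.00629. The main siRNA fit here had no replicate term, and the replicate block is given as an alternative.

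Counts were tested in R 4.3.3 with edgeR 4.0.16 (limma 3.58.1): filterByExpr, TMM scaling and the quasi-likelihood test, 9 siRNA libraries in 1 fit, 6 drug libraries in another and 12 libraries for the difference of effects; p-values were adjusted by Benjamini-Hochberg over all genes, threshold 0.05. Log2 CPM used a prior count of 2. Deviations from the group means correlated at 0.27, 0.19 and 0.36 between siControl and siMLX libraries of the same number, which pairs them; the labels give no source for the pairing. Steps were tested on simulated data. A count of 0 allows up to 3 counts, 0.204 to 0.267 CPM in siRNA and 0.0984 to 0.129 CPM in drug libraries, for counting error only. Members, lists and tests were chosen with earlier results of these data known. Genes named with every library were, in each comparison, up to 8 called members with the smallest adjusted p and the first of each role, and in other lists up to 3 with the smallest p; others (MCM3, CDC7, CDC6, POLA2, RFC5 and RPA3) were chosen after their values were seen. Positions and exon lengths come from GENCODE v29. Alternatives were DESeq2, RLE scaling, no low-count filter, a replicate block, only the compared groups, and each library left out; those without both replicate 2 knockdown libraries, or without replicate 2 of siMondoA, DMSO and SBI-477, were added after seeing the data. Figures used matplotlib 3.10.9 under Python 3.11.15.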

Additional observations from a re-analysis of the deposited data

Results flagged for a closer look

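The SBI-477 effect and the siMondoA effect, each against its own control, differed for 3 of the 40 genes by edgeR's test of the difference. GINS1 differed by 1.42 on the log2 scale, with a lower level after siMondoA in 3 of 3 libraries and drug libraries that lay at 73.8 to 89.8 CPM. DBF4 differed by -0.79, with all 3 siMondoA libraries above siControl and overlapping drug groups, and lost the call with the replicate block. RFC4 differed by -0.81, with the same arrangement of libraries, and lost the call in 12 of 18 alternatives.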

How the results depend on the processing

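The counts of members higher and lower after siMondoA were 5 to 8 and 1 under DESeq2, RLE scaling, no low-count filter, the replicate block and the 2 groups alone, and those after siMLX were 3 to 4 and 0. Of all genes, 9.18 to 18.1% were higher and 8.77 to 17% lower after siMondoA in those settings. After siMLX the shares of all genes were 2.55 to 6.52% and 3.39 to 7.44%. With 1 library left out the counts of members were 2 to 6 higher and 0 to 3 lower after siMondoA and 1 to 2 higher after siMLX. The shares of all genes were then 6.35 to 15.5% and 6.88 to 13.9% after siMondoA and 0.789 to 2.87% after siMLX. Without both replicate 2 knockdowns siMLX gave 7 higher, against 5.21% of all genes. In siMondoA against siMLX the lower members numbered 2 by DESeq2, 0 with only the 2 groups and 0 to 4 with 1 library left out. Of all genes, 5.82%, 2.75% and 2.68 to 9.91% were lower there. Without both replicate 2 knockdowns 1 member was higher and 2 lower, against 10.8% and 8.87% of all genes. SBI-477 against DMSO gave 11 higher and 1 lower from replicates 1 and 3, against 9.07% and 9.02% of all genes. It gave 0 under every other alternative run, where 0% of all genes passed. The difference of effects gave 1 to 7 higher and 1 to 3 lower with 1 library left out, against 2.34 to 7.09% and 3.18 to 8.4% of all genes. It gave 2 higher and 3 lower from drug replicates 1 and 3, against 8.51% and 8.88%. By DESeq2 it gave 1 higher and 3 lower, against 4.5% and 5.74% of all genes. With RLE scaling it gave 1 higher and 3 lower, against 4.5% and 5.99%. Without replicate 2 of siMondoA, DMSO and SBI-477 it gave 2 higher and 4 lower, against 9.82% and 9.75%. The causes of these shifts, the smaller number of libraries among them, were not tested.

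Same-numbered libraries deviated together between siControl and siMLX but not in the other comparisons, where correlations ran from 0.01 to 0.14 (siControl and siMondoA), -0.11 to 0.53 (siMondoA and siMLX) and -0.56 to -0.24 (DMSO and SBI-477), and not every library correlated best with its own number; there the numbers were not taken as pairs. With the replicate block, 8 members were higher and 1 lower after siMondoA, 4 and 0 after siMLX, 0 and 1 in siMondoA against siMLX and 0 and 0 after SBI-477; the difference of effects gave 1 higher and 0 lower. Of 450 alternative values of named genes, 352 kept direction and side of the threshold, 93 lost a call, 5 gained one and 0 changed sign. Depth did not leave any member near a count of 0, and 3 libraries a group limit the precision.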
